A study of Mus musculus with 2 samples.

Results

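Chromatin remodeler and bromodomain genes code for the ATP-driven machines that slide, eject or exchange nucleosomes and for the proteins that read acetylated or methylated histones beside them. The 75 genes described here were chosen by symbol alone: protein-coding genes of the SMARC, CHD 1 to 9, ARID 1 to 5, INO80, BAZ, BRD 1 to 9, DPF, MTA, GATAD2 and CBX 1 to 8 families, with Ep400, Pbrm1, Actl6a, Actl6b, Bptf, Mbd3, Rbbp4, Rbbp7, Bmi1, Ring1 and Rnf2. They are 75 of 21474 protein-coding genes matched to an annotation. The rule reads no measured value, though it was drawn up with earlier results of these data known.

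Polyadenylated RNA was sequenced from MEL cells, an immortalized mouse erythroleukemia line that is blocked at a red cell precursor stage and makes hemoglobin when dimethyl sulfoxide (DMSO) is added. Both libraries came from MEL cells that had been in 2% DMSO for 5 days, so there was 1 group with 2 replicates, and no untreated group was analysed here. Every value is therefore a level in treated cells and not a response to DMSO. The labels give both libraries 1 cell sample identifier, which does not settle whether they were separate cultures, and the spread between them may be technical.

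In these complexes an ATPase supplies the force and the other subunits set where and how it acts. Many subunit positions can be filled by 1 of several paralogs, so that a cell type is known by the paralogs it uses: neurons, for example, replace ACTL6A with ACTL6B, and muscle relies on SMARCD3. In the erythroid lineage the BAF ATPase SMARCA4 opens the beta-globin locus, NuRD works with GATA1 and FOG1, and CHD4 and MBD2 take part in silencing of embryonic globin genes.

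Both libraries carried the erythroid program. All 12 erythroid markers were detected, meaning at least 1 TPM in both libraries (TPM, the deposited unit, is a level scaled for transcript length and for depth), at means from 75.6 TPM for Epb42 to 22778 TPM for Hba-a2. Their summed level was 28479 TPM in replicate 1 and 77034 TPM in replicate 2. Markers of lymphocytes and of fibroblasts were detected for 0 of 6 and 0 of 5 genes, and those of granulocytes and macrophages for 1 of 8. Replicate 1 held 26149725 estimated reads and replicate 2 held 14149299. In bulk RNA, fewer cells using a gene and less RNA per cell cannot be told apart.

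The members include paralogs that were detected and paralogs that were not. The DNA just upstream of 5 of them shows how unlike such starts can be in CG dinucleotides, which cluster at the promoters of widely used genes. Each line gives the 250 bases upstream of a RefSeq start on build GRCm38.p6, read 5′ to 3′ on the gene's own strand, with CG in capitals. Smarca5 (chr8:80739460-80739709, minus strand) and Arid5a (chr1:36307483-36307732, plus strand) were detected. Smarca1 (chrX:47892614-47892863, minus strand), Arid5b (chr10:68278727-68278976, minus strand) and Actl6b (chr5:137553296-137553545, plus strand) were not.
Smarca5: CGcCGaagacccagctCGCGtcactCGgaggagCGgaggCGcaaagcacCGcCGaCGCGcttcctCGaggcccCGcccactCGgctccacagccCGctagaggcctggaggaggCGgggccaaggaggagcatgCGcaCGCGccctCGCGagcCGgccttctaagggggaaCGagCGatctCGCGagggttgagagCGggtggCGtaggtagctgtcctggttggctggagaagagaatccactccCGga
Smarca1: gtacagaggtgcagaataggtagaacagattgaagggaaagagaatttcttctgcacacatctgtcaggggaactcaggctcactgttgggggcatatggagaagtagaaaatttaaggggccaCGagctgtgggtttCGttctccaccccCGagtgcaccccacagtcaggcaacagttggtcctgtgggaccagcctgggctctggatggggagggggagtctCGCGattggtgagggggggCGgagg
Arid5a: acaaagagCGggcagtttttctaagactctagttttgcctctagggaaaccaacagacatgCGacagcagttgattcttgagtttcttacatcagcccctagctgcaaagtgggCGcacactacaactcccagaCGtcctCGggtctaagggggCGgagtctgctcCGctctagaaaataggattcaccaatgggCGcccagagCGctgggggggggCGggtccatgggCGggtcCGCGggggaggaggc
Arid5b: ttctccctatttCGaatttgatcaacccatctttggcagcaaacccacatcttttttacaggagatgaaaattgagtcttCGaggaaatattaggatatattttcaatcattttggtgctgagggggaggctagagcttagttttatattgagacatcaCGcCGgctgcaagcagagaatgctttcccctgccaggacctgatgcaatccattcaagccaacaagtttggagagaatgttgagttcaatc
Actl6b: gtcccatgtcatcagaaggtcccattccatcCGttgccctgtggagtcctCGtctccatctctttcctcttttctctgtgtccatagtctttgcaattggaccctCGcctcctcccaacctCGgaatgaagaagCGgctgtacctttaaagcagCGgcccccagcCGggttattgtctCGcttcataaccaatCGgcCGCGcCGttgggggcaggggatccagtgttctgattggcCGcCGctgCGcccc

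The windows hold 29 CG dinucleotides for Smarca5, 13 for Arid5a, 15 for Actl6b, 6 for Smarca1 and 4 for Arid5b. RefSeq windows were matched for 59 of the 75 members, and their median was 21 CG dinucleotides (range 4 to 40). The median over 16317 protein-coding genes with a window was 10, or 17 over the 7852 of these that were detected and 4 over the 8465 that were not. Where a gene has several windows, that of a member was chosen by its leading transcript and that of other genes by position. Members and all genes are therefore not compared on windows chosen alike. For 43 of the 59 members the window starts within 500 bases of the transcript that led in these libraries, and for the other 16, which include Dpf2, Dpf3, Smarca2 and Baz2b, it does not. Of 5 members with fewer than 10 CG dinucleotides in a window that near, Cbx5, Arid4b and Smarcal1 were detected, and Smarca1 and Arid5b were not. Arid3c and Chd5, also not detected, have 23 and 22 CG dinucleotides, though the Chd5 window is not that near. No coding transcript of Arid5b was quantified. Its window was placed by a transcript marked for nonsense-mediated decay, and its level over coding transcripts is not known.

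**Figure D1:**
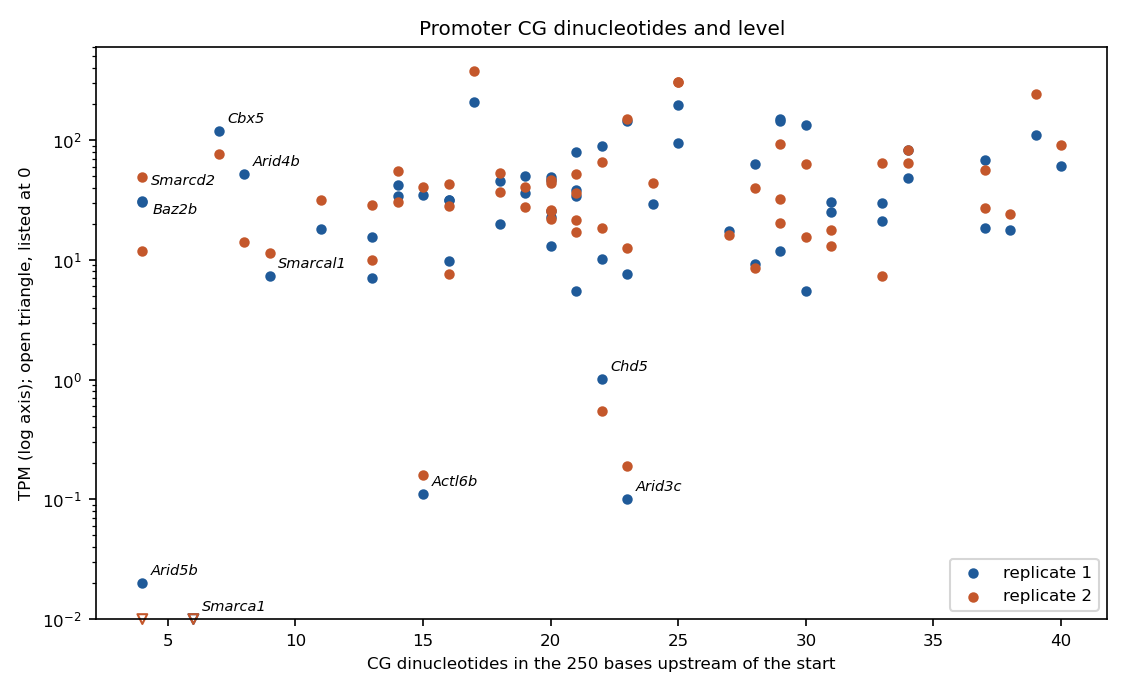
Number of CG dinucleotides in the 250 bases upstream of the RefSeq start (x axis) and TPM on a log axis (y axis) for the 59 members with a window; each member has 1 point per replicate and open triangles at the bottom edge are values listed at 0. Smarca1 and Arid5b have few CG dinucleotides and are at or near 0, whereas Cbx5 has 7 and lies at 118 and 76.6 TPM. Arid3c and Chd5, also not detected, have 23 and 22, and no coding transcript of Arid5b was quantified.

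Short motifs were searched in the same windows on both strands, so the same limit on the comparison with all genes holds. The GC box GGGCGG was present in 49 of 59 member windows (83.1%), against 44.2% of all protein-coding windows and 61.4% of those of detected genes. The erythroid GATA site AGATAA was present in 3 (Arid3b, Cbx3 and Gatad2b), or 5.08%, against 8.70% of all windows and 5.48% of those of detected genes. For the E-box CACGTG the count was 6 (10.2%, against 6.73% of all windows and 8.84% of those of detected genes), for the ETS site CCGGAAGT 2 (3.39%, against 4.06% and 7.04%), for CCAAT 21 (35.6%, against 35.8% and 37.4%) and for TATAAA 4 (6.78%, against 11.7% and 5.58%). These motifs can overlap, and a match is only a match of letters.

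Nearly all members were present. At least 1 TPM in both libraries was reached by 69 of the 75 (92%), against 45.5% of all protein-coding genes. The median member stood at 29.9 TPM, and 55 members lay between 10 and 100 TPM. The median detected protein-coding gene stood at 15.5 TPM, and 56 of the 69 detected members were above it. At 100 TPM or more in both libraries there were 6 members (Brd8, Chd4, Dpf2, Mta1, Smarca4 and Smarce1), or 8%, against 2.69% of protein-coding genes. Over coding transcripts alone 2 of these, Mta1 and Smarca4, reached that level, or 2.67% of the members against 1.85% of protein-coding genes. Together the members held 0.392% of all TPM in replicate 1 and 0.405% in replicate 2.

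**Figure D2:**
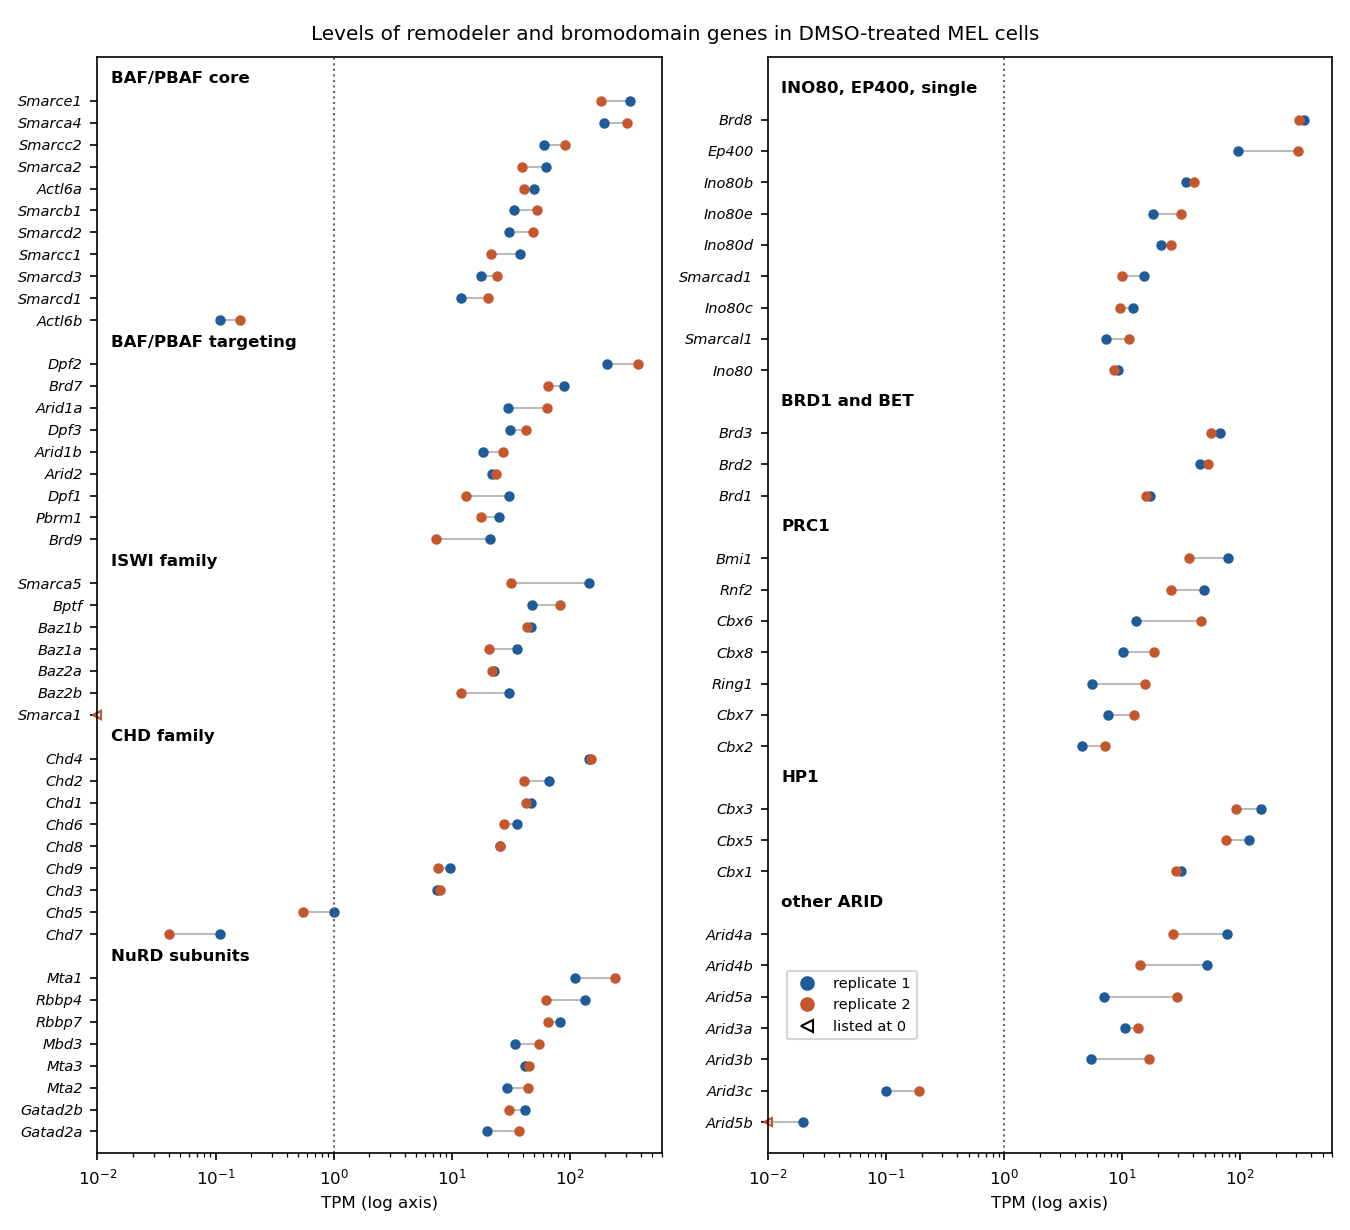
TPM of 73 members on a log axis, grouped by complex; each gene has a point for replicate 1 and a point for replicate 2 joined by a line, the dotted line marks 1 TPM and open triangles at the left edge are values listed at 0. Most genes lie between 10 and 100 TPM, and the 6 genes that miss 1 TPM in a library (Actl6b, Smarca1, Chd5, Chd7, Arid3c and Arid5b) stand apart on the left.

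The 6 members that were not detected are paralogs whose relatives were on. Smarca1, the ISWI ATPase SNF2L, had 0 reads in both libraries, which allows up to 0.115 CPM (reads scaled for depth only) in replicate 1 and 0.212 in replicate 2 by counting error alone. Actl6b, the neuronal actin-like BAF subunit, had 1 read in each. Chd7, a remodeler of neural crest and inner ear development, had 15 and 2 reads (0.11 and 0.04 TPM). Arid3c had 4 and 2 reads. Arid5b, a cofactor in fat and liver cells, had 2 and 0 reads, on a transcript marked for nonsense-mediated decay. Of its 2 coding transcripts in the later annotation 0 were quantified, so its level over coding transcripts is not known. Chd5, a CHD remodeler of neurons and testis, came closest, with 1.01 TPM in replicate 1 and 0.55 TPM in replicate 2. Of 12 neuronal markers 2 were detected (Elavl3 and Syp), with a summed level over the 12 of 6.19 and 9.30 TPM. Snap25, Syt1 and Nefl were at 0.04 TPM or less in both libraries.

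The BAF complexes are mammalian SWI/SNF, and 10 of the 11 genes for their ATPases and core were detected, with a median of 43.3 TPM. Smarca4 (BRG1), the ATPase, stood at 195 and 309 TPM in replicates 1 and 2 (mean 252 ± 80.3, SD, n = 2). Smarca2 (BRM), the alternative ATPase, stood at 63.4 and 39.5 TPM (51.5 ± 16.9, SD, n = 2). Smarca4 was thus the higher of the pair in both libraries, and held 75.5% and 88.7% of their summed TPM. The difference from replicate to replicate was large for Smarca2 transcripts: a coding transcript of 788 bases, Smarca2-218, held 47.8% of the gene's TPM in replicate 1 and 0 in replicate 2. A non-coding transcript, Smarca2-217, led in replicate 2 with 55.0%. The coding transcripts of Smarca2 held 58.4 and 15.6 TPM. Of 27 in the later annotation used for classes, 16 were not quantified.

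Among the scaffold subunits, Smarcc2 (BAF170) led with 60.8 and 91.9 TPM, and Smarcc1 (BAF155) followed with 38.1 and 21.4 TPM. Smarcc2 held 61.5% and 81.1% of the summed TPM of the pair, so its lead was wider in replicate 2. Smarcb1 (SNF5, the subunit lost in rhabdoid tumours) stood at 34.0 and 52.6 TPM. Smarce1 (BAF57) stood at 326 and 185 TPM (256 ± 99.6, SD, n = 2), above Smarca4 in replicate 1 and below it in replicate 2, but its only coding transcript held 24.6 and 43.7 TPM of this.

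Of the SMARCD subunits, which link the core to transcription factors, Smarcd2 held 50.8% and 52.3% of the summed TPM. Smarcd2, known for its part in granulocyte development, stood at 30.5 and 48.8 TPM. Smarcd3, the heart and muscle paralog, stood at 17.6 and 24.1 TPM, above Smarcd1 at 11.9 and 20.4 TPM. Over coding transcripts alone the order of these last members was the other way, with Smarcd1 at 32.9% and 34.6% and Smarcd3 at 23.8% and 15.1%. That order depends on the annotation. Smarcd1 had only 1 transcript quantified, a coding one, so all of its TPM counts as coding. For Smarcd3, 1 of 2 coding transcripts was quantified, and 59.3% of its TPM in replicate 2 lay on a transcript without a class. Of 12 muscle markers 2 were detected, Tnni3 at 178 and 387 TPM and Des at 4.20 and 7.94 TPM, and their summed level over the 12 was 183 and 400 TPM. Myod1 was listed at 0 in both libraries, and Actc1 and Myh6 were at 0.05 TPM or less. The part of other cells in the Smarcd3 level was not tested. Actl6a filled the actin-like position almost alone, at 49.8 and 41.0 TPM, or 99.8% and 99.6% of the pair.

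All 9 targeting subunits of BAF and PBAF were detected, with a median of 22.9 TPM. Arid1a, the DNA-binding subunit of canonical BAF, stood at 30.0 and 64.8 TPM, and its paralog Arid1b stood at 18.6 and 27.2 TPM. Arid1a was the higher in both libraries, at 61.7% and 70.4% of the pair. The PBAF subunits Arid2 (22.02 and 23.8 TPM) and Pbrm1 (25.01 and 17.7 TPM) were at much the same level as each other: which was higher changed from library to library.

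Brd7, the bromodomain subunit of PBAF, stood at 89.95 and 66.2 TPM. Its coding transcript held 64.2 and 24.0 TPM of this, and a non-coding transcript, Brd7-203, led in replicate 2 with 50.7%. Brd9, the bromodomain subunit of the non-canonical BAF complex, stood at 21.04 and 7.39 TPM. Brd7 held 81.0% and 89.96% of their sum, or 75.3% and 76.5% over coding transcripts alone. Both were among the members at least 2-fold lower in replicate 2 by scaled counts.

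The DPF subunits read acylated histone H3, and here the level and the kind of transcript parted. Dpf2, the paralog used in most cells, stood at 209 and 376 TPM (292 ± 118, SD, n = 2) and held 77.1% and 87.0% of the summed TPM. The protein-coding transcripts of Dpf2 held only 1.43% and 0.519% of that, or 2.99 and 1.95 TPM. A retained-intron transcript of 1115 bases, Dpf2-204, held 68.8% and 69.6% of its TPM and 65.5% and 64.4% of its reads. The rest lay mainly on Dpf2-201, annotated as a target of nonsense-mediated decay, with 26.9% and 29.9% of the reads. Of 3 coding transcripts of Dpf2 in the later annotation used for classes, 2 are in the deposited tables and the third is not in them. Over coding transcripts alone, Dpf3, the heart and brain paralog, led with 64.9% and 76.8%. Dpf3 stood at 31.5 and 42.9 TPM, nearly all of it on coding transcripts. Dpf1, the neuronal paralog, stood at 30.7 and 13.1 TPM.

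**Figure D3:**
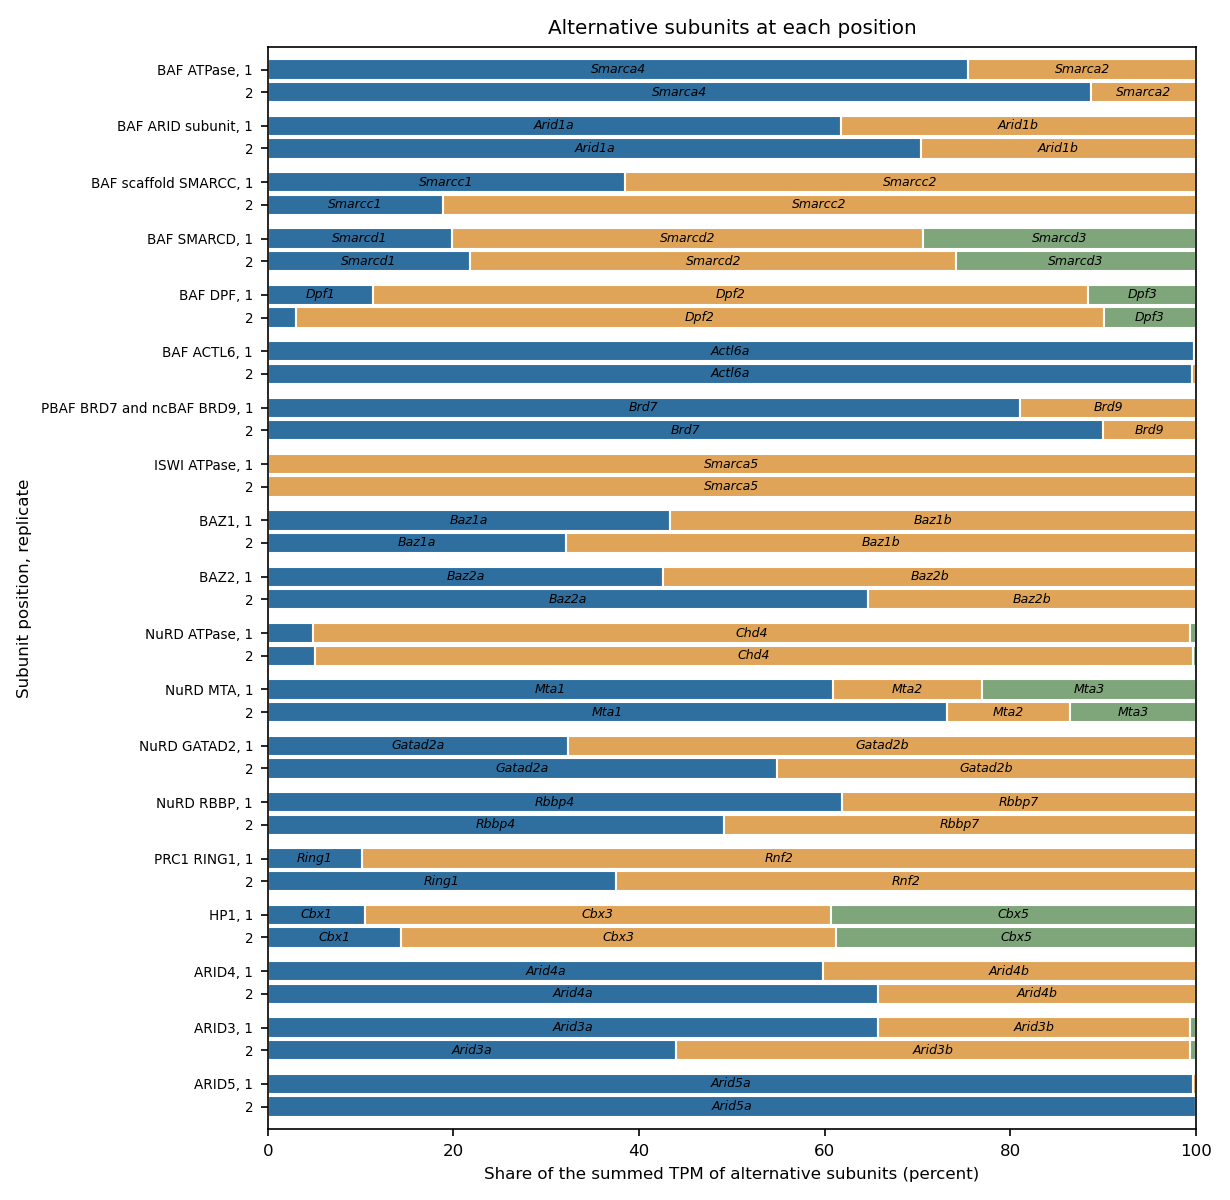
Share of the summed TPM (x axis, percent) held by each paralog in 19 sets of paralogs, labelled as subunit positions. Each set has a bar for replicate 1 and a bar for replicate 2, and names are left off segments under 7%. Not every set is a shared position. HP1, ARID3, ARID4 and ARID5 are gene families, and Brd7 and Brd9 belong to different complexes. Actl6a, Smarca5, Chd4 and Arid5a hold over 94% of their set in both libraries, though no coding transcript of Arid5b was quantified. Baz2a and Baz2b, Gatad2a and Gatad2b, Rbbp4 and Rbbp7, and Arid3a and Arid3b trade the lead from 1 library to the other. This scale counts all transcripts, and over coding transcripts Arid3a led Arid3b in both.

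ISWI remodelers space nucleosomes evenly, and 6 of the 7 family genes were detected, with a median of 28.2 TPM. Smarca5 (SNF2H), the catalytic subunit, was left as the only ISWI ATPase with reads. It stood at 145 TPM in replicate 1 and 32.1 TPM in replicate 2 (88.3 ± 79.5, SD, n = 2), a wider gap than for any other ISWI gene. Its partners were at intermediate levels: Baz1b (the Williams syndrome transcription factor, WSTF) at 46.6 and 43.9 TPM, Baz1a (ACF1) at 35.6 and 20.8 TPM, and Baz2a (TIP5, of the nucleolar complex NoRC) at 22.9 and 21.9 TPM. Baz1b was above Baz1a in both libraries. Baz2b stood at 30.8 and 11.98 TPM, above Baz2a in replicate 1 and below it in replicate 2. Bptf, the largest NURF subunit and a reader of H3K4 methylation, stood at 48.1 and 83.2 TPM.

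The levels of Bptf show how length scaling can turn a direction. In TPM it was higher in replicate 2, but its scaled counts were lower there (log2 ratio of replicate 2 over replicate 1, -0.60). A transcript of 867 bases, Bptf-207, took 10.4% of its reads and 58.9% of its TPM in replicate 2, against 0.0924% and 1.21% in replicate 1. Of its long coding transcripts, Bptf-201 (11488 bases) held 26.0 and 26.4 TPM and Bptf-202 (11847 bases) held 16.4 and 2.38 TPM.

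CHD remodelers carry paired chromodomains, and 7 of 9 were detected, with a median of 25.5 TPM. Chd4, the NuRD ATPase, was the highest. Over all transcripts it was among the most even of the members, at 146 and 150 TPM (148 ± 3.16, SD, n = 2). Its coding transcripts were less even, at 99.8 and 146 TPM. A retained-intron transcript, Chd4-206, held 30.8% of its TPM in replicate 1 and 0.512% in replicate 2. The leading transcript changed from Chd4-201 to Chd4-202. Chd4 held 94.5% and 94.6% of the summed TPM of the NuRD ATPases. Chd3 followed at 7.56 and 8.04 TPM. Chd2 stood at 66.3 and 41.1 TPM, and Chd1, a remodeler of transcribed genes, at 47.3 and 42.4 TPM. Over coding transcripts alone Chd1 had 47.3 and 23.2 TPM, and its scaled counts were lower in replicate 2 (log2 ratio -1.02). Chd6 stood at 35.9 and 27.6 TPM. Chd8, whose human counterpart is a known autism gene, was level over all transcripts at 25.5 and 25.6 TPM. On coding transcripts it had 16.5 and 21.1 TPM. Chd9 stood at 9.71 and 7.66 TPM.

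NuRD joins a remodeling ATPase to histone deacetylases, and all 8 subunit genes on the list were detected, with a median of 44.1 TPM. Mta1 had the highest mean, at 111 and 244 TPM (177 ± 94.1, SD, n = 2), but Rbbp4 was above it in replicate 1. It held 60.9% and 73.2% of the MTA subunits' summed TPM. Mta3 (42.1 and 45.2 TPM) and Mta2 (29.3 and 44.3 TPM) did not differ beyond the spread between libraries. Mbd3, the methyl-CpG-binding domain subunit that is mutually exclusive with MBD2, stood at 34.2 and 55.0 TPM.

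The remaining NuRD positions were shared. Gatad2b stood at 41.9 and 30.4 TPM and Gatad2a at 20.0 and 36.9 TPM, so that Gatad2a held 32.4% of the pair in replicate 1 and 54.9% in replicate 2. Rbbp4, a histone chaperone also found in PRC2 and CAF-1, stood at 135 and 62.9 TPM. Its paralog Rbbp7 stood at 83.1 and 64.99 TPM. Rbbp4 held 61.9% of the pair in replicate 1 and 49.2% in replicate 2.

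All 9 genes of the INO80 and EP400 complexes and of the remodelers that act as single ATPases were detected, with a median of 23.7 TPM. Brd8, the bromodomain subunit of the EP400 complex, had the highest mean of all 75 members, at 350.0 and 318 TPM (334 ± 22.9, SD, n = 2), although Dpf2 was above it in replicate 2. A non-coding transcript of 599 bases, Brd8-206, held 85.2% and 87.8% of that TPM. Ep400, the ATPase that exchanges H2A.Z, stood at 95.6 and 307 TPM (201 ± 149, SD, n = 2). Here too a short non-coding transcript, Ep400-211 of 394 bases, held 68.2% and 79.9% of TPM, although only 8.61% and 18.6% of the gene's reads were given to it. On coding transcripts, Brd8 had 39.8 and 32.8 TPM and Ep400 had 29.5 and 61.2 TPM.

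Ino80 itself, an ATPase that slides nucleosomes at promoters and replication forks, was low at 9.28 and 8.48 TPM. The subunit genes Ino80b (34.7 and 40.8 TPM), Ino80d (21.4 and 26.0 TPM), Ino80e (18.2 and 31.4 TPM) and Ino80c (12.3 and 9.61 TPM) were each above it in both libraries. Smarcad1, which restores silent chromatin after replication, stood at 15.4 and 10 TPM. Smarcal1, which reverses stalled replication forks, stood at 7.30 and 11.5 TPM.

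The BET proteins bind acetylated histones and recruit elongation factors, and Brd1 belongs to a histone acetyltransferase complex. All 4 genes of this list were detected, with a median of 55.8 TPM. Brd3, which binds acetylated GATA1, stood at 67.9 and 56.2 TPM, and Brd2 at 45.5 and 53.4 TPM. Brd3 was above Brd2 in both libraries, and they lay within 3 TPM of each other in replicate 2. Brd1 stood at 17.3 and 16.04 TPM.

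PRC1 places ubiquitin on histone H2A and compacts chromatin. All 8 of its member genes were detected, with a median of 18.3 TPM. Bmi1, the Polycomb ring finger that supports stem cell renewal, was the highest in replicate 1, at 78.9 and 36.5 TPM. Rnf2 (RING1B), the main catalytic subunit, stood at 49.4 and 26.0 TPM and Ring1 at 5.55 and 15.6 TPM. Rnf2 was the higher in both libraries, with 89.9% and 62.5% of the pair.

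The CBX subunits, which bind trimethylated H3K27, were at low to middle levels. Cbx6 stood at 13.2 and 46.7 TPM, Cbx8 at 10.1 and 18.5 TPM, Cbx7 at 7.59 and 12.7 TPM and Cbx2 at 4.53 and 7.11 TPM. All of these were higher in replicate 2 in TPM. Cbx2, known for its part in gonad development, was the lowest of all 69 detected members.

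HP1 proteins bind trimethylated H3K9 in heterochromatin, and all 3 of their genes were detected, with a median of 97.4 TPM. Cbx3 (HP1 gamma) stood at 151 and 92.6 TPM, Cbx5 (HP1 alpha) at 118 and 76.6 TPM and Cbx1 (HP1 beta) at 31.4 and 28.4 TPM. This order was the same in both libraries. Of the Cbx1 reads, 92.3% and 97.0% were given to Cbx1-204, a transcript of 2377 bases annotated as a target of nonsense-mediated decay, and 4.55 and 0.77 TPM were left on its coding transcripts.

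Cbx3 also has near-identical processed copies. Cbx3-ps6, a pseudogene on chromosome 14, matches a Cbx3 transcript at 99.8% over its whole length of 552 bases. It was given 2856 and 1218 estimated reads and 232 and 175 TPM, a higher TPM than that of Cbx3 in both libraries. Reads that fit both places cannot be told apart, so the level of Cbx3 is uncertain. Over 4 such copies, the copies' reads came to 55.1% and 56.9% of the number given to Cbx3 itself. For Smarca5, 6 copies on chromosome 4 had 5.36% and 5.18% as many reads as the gene. For Smarce1, 2 copies had 14.0% and 5.80%, chiefly Smarce1-ps1. The copies of Rbbp7, Bmi1 and Ep400 had under 0.5% as many reads as the gene in each library.

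Of the other ARID genes, 5 of 7 were detected, and the list median was 12.1 TPM. Arid4a, an RB-binding subunit of the SIN3 deacetylase complex, stood at 77.6 and 27.0 TPM, and its paralog Arid4b at 52.1 and 14.1 TPM. Both were lower in replicate 2, and Arid4a was the higher in both libraries. Arid3a, a transcription factor of lymphoid and fetal blood cells, stood at 10.7 and 13.5 TPM, and Arid3b at 5.45 and 17.0 TPM. Arid3a was above Arid3b in replicate 1 and below it in replicate 2 over all transcripts, but over coding transcripts alone it was the higher in both (log2 level ratio 0.89 and 1.10). Arid5a, which steadies inflammatory mRNAs, stood at 7.06 and 28.9 TPM.

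Over 26 paralog pairs, 22 had the same order in both libraries, and 10 of these differed by 3 to 1 or more in each. The 10 include Actl6a and Actl6b, Smarca5 and Smarca1, and Chd4 and Chd5, each with a paralog that was not detected. Pairs whose order changed were Baz2a and Baz2b, Gatad2a and Gatad2b, Rbbp4 and Rbbp7, and Arid3a and Arid3b. Over coding transcripts alone, 3 pairs had another order than over all transcripts: Arid3a and Arid3b, and Dpf2 with each of Dpf3 and Dpf1. The Dpf2 pairs are also among the 10. In 17 pairs the ratio moved in replicate 2 toward the gene with the higher GC content. A pair's order is a description of these libraries and has no test.

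A sizeable part of the members' TPM lay on transcripts not annotated as protein-coding. Classes are those of GENCODE M21, whereas reads were assigned with GENCODE M4, in which a transcript may have had another class. Protein-coding transcripts held 68.2% of the members' TPM in replicate 1 and 64.99% in replicate 2 (66.6% ± 2.30, SD, n = 2). They took 90.9% and 89.9% of the members' reads. Processed transcripts, non-coding and often short, held 21.4% and 21.8% of TPM on 3.85% and 3.97% of reads. TPM divides reads by transcript length, so a short transcript weighs more on that scale. Over all detected protein-coding genes, coding transcripts held 79.5% and 80.3% of TPM, and processed transcripts 7.56% and 5.64%. Both sides are shares of summed TPM, in which genes at high TPM weigh most. For the members these include Brd8, Dpf2, Smarce1 and Ep400, with mean coding shares of 10.9%, 0.845%, 13.3% and 22.5%. For all detected protein-coding genes the highest mean was 102299 TPM. Shares counted gene by gene are given below. Among the members, retained-intron transcripts held 7.68% and 9.70% of TPM, and transcripts marked for nonsense-mediated decay 1.60% and 2.89%.

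This share was spread unevenly among members. Coding transcripts held at least 90% of TPM in 33 of the 69 detected members (47.8%), against 59.2% of detected protein-coding genes. They held under 50% in 11 members (15.9%), against 19.6% of those genes. The transcript with the highest mean TPM was of a class other than protein-coding in 10 (14.5%), against 18% of detected protein-coding genes. Besides Brd8, Cbx1, Dpf2, Ep400, Smarce1 and Dpf1, these included Arid3b, Arid5a and Cbx8. Smarce1-206, of 610 bases, held 58.8% and 69.1% of its gene's TPM. Cbx8-202 held 62.0% and 67.2%. Arid3b-207, of 327 bases, held 30.8% and 59.2% on 5% and 11.8% of the gene's reads. For Arid5a a retained-intron transcript of 407 bases, Arid5a-214, went from 14.2% in replicate 1 to 66.3% in replicate 2. Dpf1-205 went the other way, from 52.9% to 13.3%. The leading transcript of Smarcd3 by mean is not in the later annotation, so it has no class here. In 38 of the 69 detected members (55.1%) the same transcript led in both libraries, and in 31 it did not. For detected protein-coding genes, those with a single transcript included, the share with the same leading transcript was 76.9%. Of the 69, 68 kept at least 1 TPM of coding transcripts in both libraries, and Cbx1 did not.

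**Figure D4:**
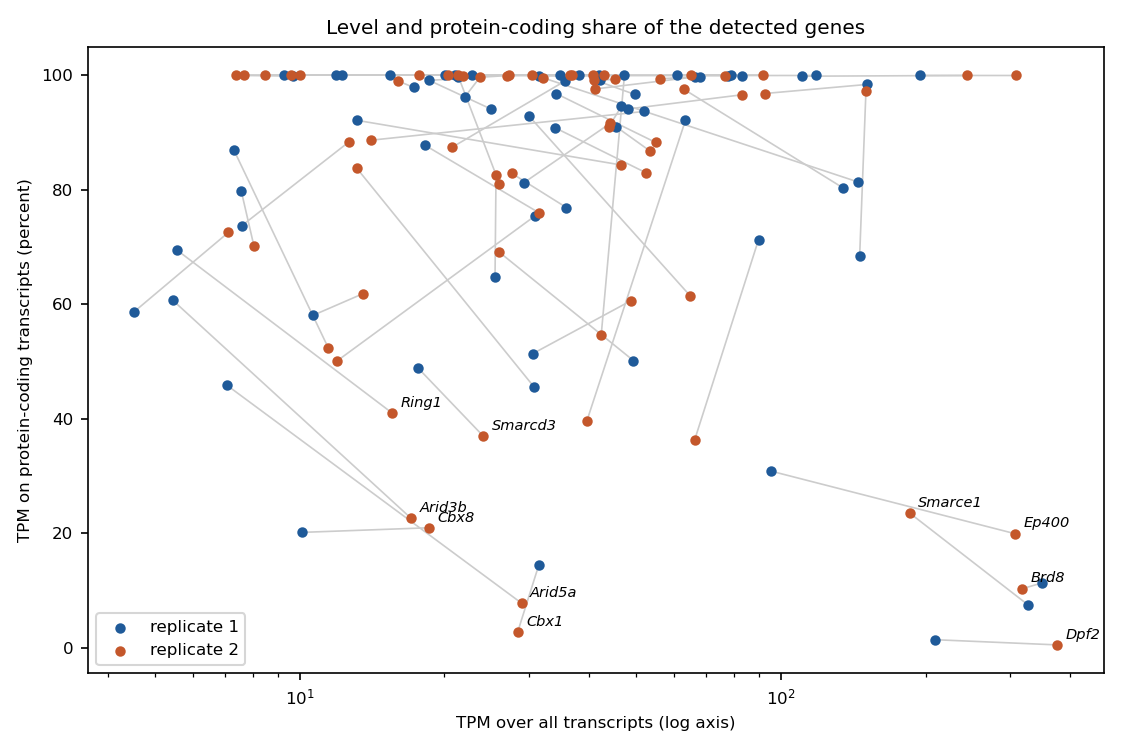
TPM over all transcripts on a log axis (x axis) and percent of it on protein-coding transcripts (y axis) for 67 detected members; each has a point per replicate joined by a line, and names mark genes whose mean coding share is under 50%. Dpf2, Brd8, Ep400 and Smarce1 combine a high level with a coding share of 30.9% or less in each library, while Smarca4 and Mta1 are coding almost throughout.

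The libraries were next set against each other, since a member's level is only as firm as its repeat. Scaled counts (TMM factors, prior count of 1) gave a log2 ratio of replicate 2 over replicate 1 for 70 members with a mean of at least 10 estimated reads. Of these 30 were higher and 40 lower in replicate 2. Of the 11452 protein-coding genes with a ratio, 5884 (51.4%) were higher and 5568 lower. At least 2-fold higher were Arid3b and Arid5a, or 2.86% of 70 against 14.1% of 11452 protein-coding genes. At least 2-fold lower were 10 (Arid4a, Arid4b, Baz1a, Baz2b, Bmi1, Brd7, Brd9, Chd1, Smarca5 and Smarcc1), or 14.3% against 14.7%, so their share is that of genes at large. With 1 library against 1 there is no test. The widest gaps were those of Arid4b, with a log2 ratio of -2.31, and Smarca5, with 18031 and 2660 estimated reads and a log2 ratio of -2.13. TMM, DESeq2 size factors and the total of reads differ from each other by a near-constant shift of all ratios. Under these and deposited TPM, 61 of the 70 kept their direction, whereas removing the trend with GC content (given next) changed the direction of 27 of the 70. The 9 that changed among the 4 scalings were Smarcd3, Arid2, Chd5, Ino80b, Ino80d, Bptf, Baz2a, Mta3 and Arid3a.

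GC content moved with these ratios. Across the 70 members the ratio and the GC content of their transcripts had a Spearman rho of 0.738 and a Pearson r of 0.714, and across 11451 protein-coding genes rho was 0.707. These points share 2 libraries, and genes are not independent replicates. Of 11 members below 45% GC, 10 were lower in replicate 2, with a median log2 ratio of -0.81, against 2195 of 2423 protein-coding genes. From 45 to 50% GC, 17 of 18 were lower, with a median of -0.56, against 2094 of 2886 genes. From 50 to 55%, 11 of 21 were higher, with a median of 0.14, against 2183 of 3170 genes. At 55% and above, 17 of 20 were higher, with a median of 0.61, against 2681 of 2972 genes. Bmi1, at 38.0% GC the lowest, had a log2 ratio of -1.26, and Mta1, at 57.2%, had 0.95.

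**Figure D5:**
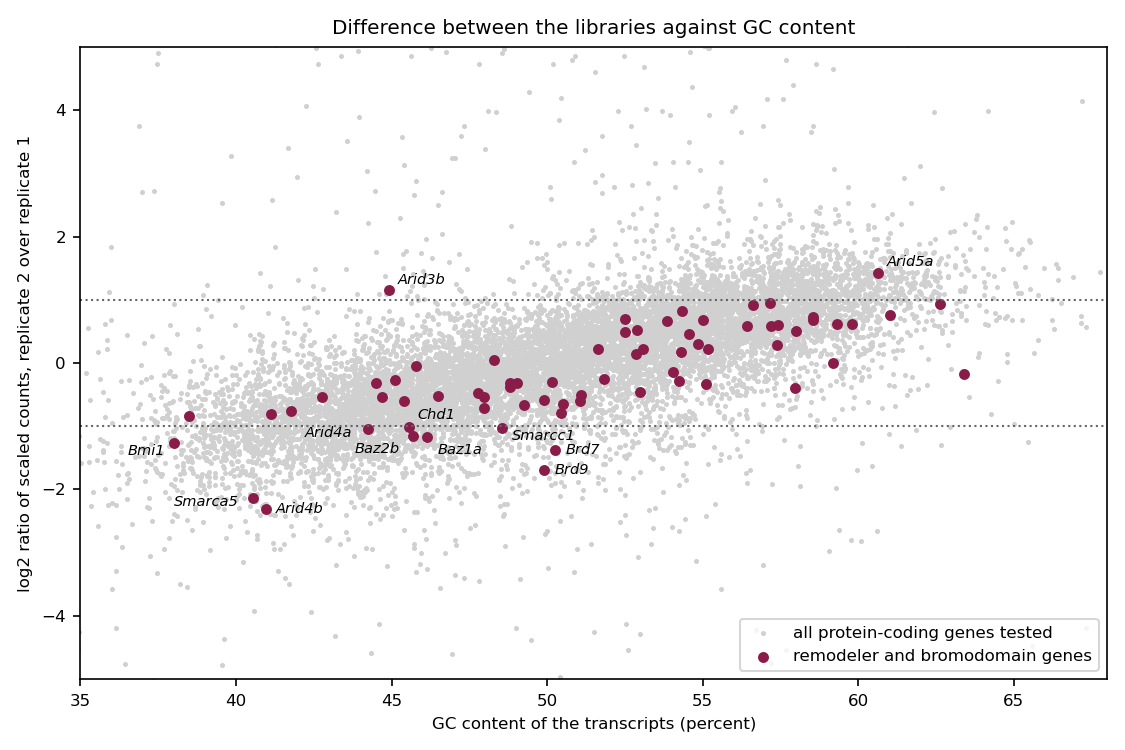
GC content of the transcripts, weighted by TPM (x axis, percent), and log2 ratio of scaled counts, replicate 2 over replicate 1 (y axis). Protein-coding genes are in grey and the 70 members with a ratio in dark red. Dotted lines mark 2-fold, and 109 grey genes lie outside the axes. Members rise with GC content along the grey cloud, with Smarca5 and Arid4b at the lower left, Arid5a at the upper right, and Arid3b, Brd7 and Brd9 away from its middle.

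After the GC trend of the protein-coding genes was removed, 1 member was at least 2-fold higher in replicate 2 (Arid3b, against 5.35% of genes). This call rests on a GC content weighted by TPM, which was 44.9% for Arid3b. The short Arid3b-207 (36.1% GC) weighs on it with 5% and 11.8% of the gene's reads. Arid3b-201 (54.7% GC) had 66.2% and 59.9% of them. A GC content weighted by reads was not tried. At least 2-fold lower were 6 (Arid4b, Brd7, Brd9, Dpf1, Ino80b and Smarca5), or 8.57% against 6.89%. Arid4b, Brd7, Brd9 and Smarca5 passed 2-fold both with and without the trend, at -1.30, -1.36, -1.64 and -1.08 after removal. Of 4 coding transcripts of Brd9 in the later annotation, only 1 was quantified. All of the Brd9 reads (1204 and 239) were therefore given to that transcript. By contrast Bmi1, at -0.02, and Baz1a, at -0.66, no longer passed.

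Directions of whole complexes also moved with that trend. The 6 ISWI genes with a ratio had a median of -0.88, with 6 lower in replicate 2 by TMM and after GC removal, and 5 lower by total reads or TPM. PRC1 genes had a median of 0.65 with 6 of 8 higher, but after GC removal the median was -0.24 with 1 of 8 higher. For HP1 genes, 0 of 3 were higher, and after GC removal 3 of 3. BAF and PBAF core genes went from 6 of 10 higher to 1 of 10, and the targeting subunits from 4 of 9 to 3 of 9. NuRD subunits (4 of 8), CHD genes (4 of 8), INO80 and EP400 genes (3 of 9) and the other ARID genes (2 of 5) had the same count of higher members either way. Only for the other ARID genes were they the same genes. Among NuRD subunits Mbd3 went from 0.62 to -0.38 and Rbbp7 from -0.60 to 0.01, and the NuRD median from 0.20 to -0.19. The BET group had 1 of 4 and 0 of 4. Over all 70 members the median was -0.28, against 0.04 for all protein-coding genes, and -0.23 against 0.02 after GC removal. The part of GC content in the difference between the libraries was not tested beyond this.

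Genes that work beside the members were read from lists of known partners. All 8 SWI/SNF partners were detected. Phf10, a PBAF subunit, led at 156 and 101 TPM, ahead of Bcl7b (37.1 and 45.7 TPM) and Ss18 (34.9 and 44.3 TPM), with Ss18l1 (4.11 and 4.30 TPM) and Bicral (3.52 and 4.46 TPM) the lowest. All 7 NuRD partners were detected, and their median of 139 TPM was above that of the NuRD members. Hdac2, a deacetylase of NuRD, stood at 932 and 280.4 TPM, and Zfpm1 (FOG1), which ties NuRD to GATA1, at 276 and 513 TPM. Mbd2 stood at 185 and 105 TPM, while Mbd3, its alternative among the members, was lower in both. Cdk2ap1 (50.7 and 69.3 TPM) and Kdm1a (38.1 and 53.2 TPM) were the lowest.

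The partners of INO80, TIP60 and SRCAP were all detected (24 of 24). Morf4l1 (475 and 291 TPM), Vps72 (98.98 and 180 TPM) and Ruvbl2 (56.3 and 141 TPM) were the highest, and Actr5 (3.26 and 10.7 TPM) and Actr6 (5.20 and 3.26 TPM) the lowest. All 5 ISWI partners were detected, from Rsf1 (84.9 and 21.9 TPM), Pole3 (56.2 and 45.9 TPM) and Hmgxb4 (36.5 and 41.2 TPM) to Chrac1 (17.5 and 38.9 TPM) and Cecr2 (4.44 and 4.53 TPM). Rsf1, which pairs with Smarca5, was lower in replicate 2, as Smarca5 was. Both have under 45% GC (43.7% and 40.5%), where 2195 of 2423 protein-coding genes were lower in replicate 2.

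Of 14 PRC1 partners 13 were detected. Yaf2 (56.6 and 22.4 TPM), Pcgf2 (25.3 and 52.1 TPM) and Scmh1 (26.0 and 43.9 TPM) led, and Pcgf6 (9.73 and 8.28 TPM) was the lowest detected. Rybp, the paralog of Yaf2, was at 0.01 TPM and 0. All 9 genes of PRC2, which methylates the H3K27 that CBX proteins bind, were detected. Ezh2, its catalytic subunit, stood at 281 and 71.7 TPM, Suz12 at 241 and 90.8 TPM and Eed at 91.1 and 95.2 TPM, with Phf1 (2.42 and 5.60 TPM) and Phf19 (2.01 and 3.80 TPM) the lowest. Of 21 other bromodomain genes 20 were detected. Trim28 (155 and 229 TPM), Brpf3 (38.1 and 106 TPM) and Zmynd11 (80.6 and 61.8 TPM) were the highest, Trim33 (14.8 and 9.77 TPM) was the lowest detected, and Trim66 was listed at 0 in both.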

How the data were processed

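Single-end reads of polyadenylated RNA from 2 MEL cell libraries were placed on mm10 and quantified against GENCODE M4, per the submitters' file lists. The program was not given in the sources used here. Per the file headers, the deposited columns hold expected counts (reads assigned by estimation, not scaled) with TPM, FPKM and posterior mean TPM, which are scaled for length and depth. The percent of a gene's expression on each transcript is also in the deposited tables. Estimation splits reads among transcripts and near-identical copies, which makes single transcripts uncertain. Depth was 26149725 and 14149299 expected counts in the deposited tables, which sets a floor of 3 reads (0.115 and 0.212 CPM).

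Symbols, transcript classes and coordinates came from GENCODE M21 on the same assembly, by Ensembl ID. Ratios used edgeR 4.0.16 TMM factors (prior count 1, mean of at least 10 counts) in R 4.3.3, or DESeq2 1.42.0 size factors, on rounded expected counts. A lowess curve (span 0.3) through protein-coding genes averaging 100 counts or more gave the GC trend. The GC content of a gene was the mean over its transcripts, weighted by TPM. The ratio steps were tested on simulated data. Pseudogenes were aligned to member transcripts with blastn 2.17.0 (at least 95% identity over at least 80% of the copy). Promoter windows came from RefSeq (GRCm38.p6), and where a gene has several, the window nearest the start of its leading transcript was taken for members and the first by position for all genes. Other steps used Python 3.11.15, numpy 2.4.6, pandas 2.3.3, scipy 1.17.1 and statsmodels 0.14.6, with figures from matplotlib 3.10.9.

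With 1 group and 1 library against 1, no test was made, and counts of members are set beside the same counts over all protein-coding genes. The members and the lists of complexes, partners and markers were chosen with earlier results of these data known. The rule for named genes took every member, and of each partner list the 3 highest and 2 lowest by mean TPM. Alternatives were other detection limits, scalings, filters, units, coding transcripts alone and each library alone. Separate cultures are not settled by the labels. Some members are counted but not reported here by name.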

Additional observations from a re-analysis of the deposited data

How the results depend on the processing

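The count of 69 detected members stayed within 1.5 times under each of 7 alternatives (0.5 or 5 TPM, FPKM, posterior mean TPM, coding transcripts, each library alone). The median level of 29.9 TPM became 25.2 over coding transcripts and 36.1 over detected members only. Members at least 2-fold higher in replicate 2 numbered 2 by TMM, 7 by total reads, 7 by deposited TPM and 1 with the GC trend removed, and those at least 2-fold lower numbered 10 by TMM, 5 by total reads and 6 with the GC trend removed; without a filter, with DESeq2 size factors or with a prior count of 5 both stayed within 1.5 times. The median log2 ratio of -0.28 became -0.022 by total reads and -0.027 by deposited TPM, where the median of all protein-coding genes also shifted, from 0.04 to 0.29 and 0.24. The members' median minus that of all genes was -0.31 by TMM, DESeq2 size factors and total reads. These differ by a near-constant shift of all ratios, which can hardly change such a gap, so their match carries no weight. The gap was -0.27 by deposited TPM and -0.25 with the GC trend removed. The coding share of 66.6% became 90.4% as a share of reads. Of 75 member levels, 22 moved by more than their spread over coding transcripts and 11 with posterior means. The slot shares over coding transcripts, added after the data were seen, moved by more than their spread for 23 of 52 genes. By the same late choice, the 6 members at 100 TPM or more became 2.

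The order of Dpf2 and its paralogs reversed over coding transcripts, to a log2 level ratio of -3.87 against Dpf3 and -2.31 against Dpf1. Left to 1 library, the order of 4 pairs reversed: leaving out each library in turn gave log2 level ratios from -0.43 to 0.86 for Baz2a to Baz2b, from -1.06 to 0.28 for Gatad2a to Gatad2b, from -0.046 to 0.70 for Rbbp4 to Rbbp7 and from -0.33 to 0.96 for Arid3a to Arid3b. The cause was not tested. No paired analysis was possible because there is 1 group. A group of 2 libraries gives no test of any difference, and the 0 reads of Smarca1 allow up to 0.115 and 0.212 CPM.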

Other observations

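Some genes outside the members, chosen after their values were seen, stood out in the bromodomain list. Brdt, the BET gene known for its work in male germ cells, stood at 31.1 TPM in replicate 1 and 8.12 TPM in replicate 2, on 2076 and 523 estimated reads. Sp140, a bromodomain gene of immune cells, stood at 73.6 and 34.6 TPM. Both were therefore detected, and Brdt was lower than Brd2 and Brd3 among the members in both libraries.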
